A study of Mus musculus with 9 samples.

Results

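Spinal cord RNA of mice given an antisense oligonucleotide (ASO) against C9orf72 was compared with that of mice given saline, 3 libraries against 3. All genes with an RPKM of 0.5 or more in at least 3 of these 6 libraries were taken, which gave 14330 of the 14831 genes in the table. RPKM is the number of reads on a gene scaled to transcript length and to library size. Of these genes, 13882 had a symbol and 13283 were annotated as protein coding.

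All mice were wild-type C57Bl/6 females aged 10 weeks, except that the label of control ASO replicate 3 names no strain. The injection, 10 µl in volume, went to the right lateral ventricle, and the spinal cord was taken 2 weeks later. It held saline, 500 µg of the C9orf72 ASO (number 571883) or 500 µg of a control ASO (number 456835). Whether each library stands for its own animal is not stated in the labels, so that p-values measure the spread between these samples, which may be technical.

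An ASO of this kind pairs with its target RNA and recruits RNase H, the enzyme that cuts the RNA strand of an RNA to DNA hybrid. C9orf72 encodes a DENN domain protein that works with SMCR8 and WDR41 in membrane traffic, autophagy and the lysosome, and it is highly expressed in cells of the myeloid lineage, to which microglia belong. In people, a repeat expansion in this gene is often found in inherited amyotrophic lateral sclerosis (ALS) and frontotemporal dementia (FTD). These mice carried no expansion. Compared with saline, the treatment combines lowering of the target with exposure to an oligonucleotide, and values of the control ASO libraries are therefore given beside the genes the results turn on.

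The 9 libraries were close to each other in depth, at 90.4 to 123.9 M reads as read from the steps between low values, and 0.5 RPKM stood for 45.2 to 62 reads per kilobase. Values under 0.5 RPKM were listed at a floor of 0.1 RPKM (434 to 640 genes a library). Across the 14330 genes the log2 values of the 6 saline and C9orf72 ASO libraries correlated at 0.987 to 0.992 within groups and 0.985 to 0.989 between groups. Defining genes of the cord were present, with Hoxc8 at 60.5 to 75.2 RPKM in the 6 libraries, while Neurod6 of forebrain neurons was at 1.52 to 1.94 RPKM. Among blood genes, S100a8 and S100a9 of neutrophils were at the floor in all 6 libraries and Hba-a1 of red cells was at 263 to 451 RPKM. The control ASO libraries stood apart in these 2 neutrophil genes, with S100a8 at 2.28, 1.96 and 0.537 RPKM and S100a9 at 3.68, 2.48 and 1.52 RPKM. Csf3r and Mmp9, the 2 genes of the neutrophil list among those analysed, overlapped between the control ASO and saline. Hba-a1 was at 1056, 377 and 255 RPKM after the control ASO, and only replicate 1 lay above the range of the 6 libraries. The part of blood content in comparisons with that group was not tested.

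C9orf72 (ENSMUSG00000028300), the target, stood at 10.5, 11.4 and 11.5 RPKM in the saline libraries, 11.2, 11.7 and 10.6 RPKM in the control ASO libraries and 2.68, 3.40 and 3.12 RPKM in the C9orf72 ASO libraries. The 3 treated libraries lay far below the other 6, and the saline and control ASO libraries overlapped. The mean after the C9orf72 ASO, 3.07 ± 0.359 RPKM (SD, n = 3), was 27.6% of the saline mean of 11.1 ± 0.537 RPKM. C9orf72 thus fell by 1.83 on the log2(RPKM + 0.1) scale (SE 0.08, adjusted p = 1.9e-06, limma). An exact permutation test of the 6 values gave a two-sided p = 0.1, which is the lowest value reachable with 20 splits.

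The partners of the C9orf72 protein did not pass the test. Smcr8 was at 7.99, 11.1 and 8.91 RPKM after saline, at 10.2, 10.4 and 10.3 RPKM after the control ASO and 9.66, 9.35 and 8.77 RPKM after the C9orf72 ASO (log2 fold change 0.00, adjusted p = 0.994, limma). Wdr41 was at 12.7, 12.4 and 12.7 RPKM after saline and 12.4, 12.2 and 11.8 RPKM after the C9orf72 ASO (log2 fold change -0.05, adjusted p = 0.699, limma). Its control ASO libraries, at 12.1, 11.4 and 11.8 RPKM, lay below saline without overlap (log2 fold change -0.10, adjusted p = 0.794, limma). Among 11 genes of the complex and its locus, C9orf72 was the only one called, and the median log2 fold change was -0.05. Mob3b, a kinase activator gene near C9orf72, was at 19.6, 19.2 and 16.6 RPKM after saline and 15.8, 14.9 and 16.5 RPKM after the C9orf72 ASO (log2 fold change -0.23, adjusted p = 0.246, limma), with 17.5, 19.7 and 19.1 RPKM after the control ASO. Mob3b was named after its values were seen.

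Over all 14430 genes in the fit, 10 (0.0693%) passed an adjusted p of 0.05, and all 10 were among the genes analysed here, 5 higher and 5 lower after the C9orf72 ASO. Against the control ASO 10 genes (0.0693%) passed, 9 of them among the genes analysed here. Between the control ASO and saline 1 gene (0.00693%) passed, and it was not among the genes analysed here. All 3 comparisons share libraries, and the log2 fold changes are therefore set side by side below. Of the 10 genes that passed against saline, C9orf72, Tppp, AA474408 and Capn11 kept an adjusted p under 0.05 whichever of the 9 libraries was left out, and the other 6 did not.

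**Figure D1:**
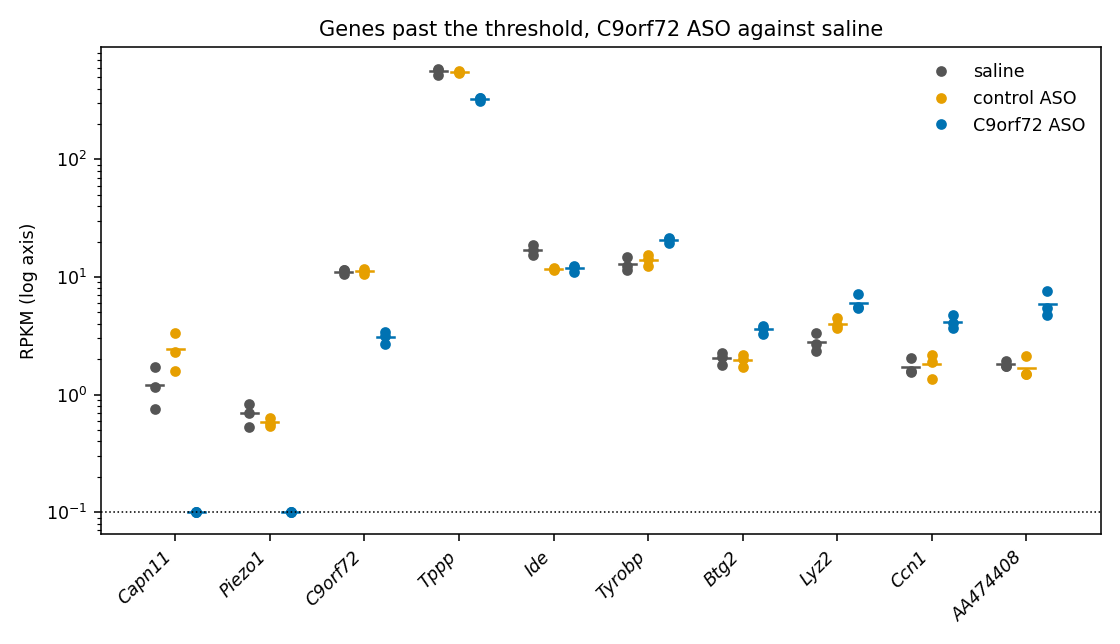
RPKM on a log axis for the 10 genes past the threshold against saline, 1 point a library with 3 libraries a group, and a line at each group mean; the dotted line is the floor of 0.1 RPKM. The control ASO points lie with saline for C9orf72, Tppp, Ccn1, Btg2 and AA474408, with the C9orf72 ASO for Ide, and between both for Lyz2.

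Tppp, a microtubule-binding protein of oligodendrocytes, was the most abundant gene called. It stood at 581, 582 and 523 RPKM after saline, at 565, 540 and 552 RPKM after the control ASO and at 336, 312 and 336 RPKM after the C9orf72 ASO. The treated libraries were all below the other 6, and Tppp fell by 0.78 on the log2 scale (SE 0.07, adjusted p = 9.0e-04, limma). Its log2 fold change was -0.75 against the control ASO and -0.02 for the control ASO against saline.

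Other genes of the cell type and of the cytoskeleton did not share the size of this difference. Of 32 oligodendrocyte and myelin genes only Tppp was called, and the median was -0.034, near the median of all 14330 genes (-0.027). At an unadjusted p under 0.05 (limma), 5 were lower and 0 higher, against 10.2% and 3.79% of all genes in the fit. Without C9orf72 ASO replicate 3 there were 12 lower and 1 higher. The median was 0.04 against the control ASO and -0.08 for the control ASO against saline. Mbp, a major protein of myelin, was at 2799, 2110 and 2289 RPKM after saline, 2127, 2085 and 1967 RPKM after the control ASO and 2134, 1948 and 2313 RPKM after the C9orf72 ASO (log2 fold change -0.16, adjusted p = 0.504, limma), with overlapping saline and C9orf72 ASO libraries. Of 52 microtubule genes, 12 were lower and 0 higher at an unadjusted p under 0.05 (limma), with a median of -0.03 and Tppp the only one called (7 lower and 1 higher without C9orf72 ASO replicate 1). Over all genes in the fit, 3.79% were higher and 10.2% lower by that measure, and these shares are to be set beside each list count below. The other 11 lay between -0.33 for Map1s and -0.14 for Map4, both genes of microtubule-associated proteins that were named after their values were seen. In bulk tissue, fewer cells of a type and less RNA per cell cannot be told apart.

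Capn11, a calpain protease gene, was at 0.758, 1.70 and 1.16 RPKM after saline and at 2.30, 3.36 and 1.60 RPKM after the control ASO, and it was listed at the floor in all 3 C9orf72 ASO libraries. Against the lowest measurable 0.5 RPKM it fell at least 2.41-fold from the saline mean of 1.21 RPKM (adjusted p = 0.00691, limma). Piezo1, a mechanically gated cation channel, was at 0.839, 0.700 and 0.533 RPKM after saline, 0.627, 0.539 and 0.578 RPKM after the control ASO and at the floor in all C9orf72 ASO libraries. Its saline values lay just above the measurable limit, so that the decrease was at least 1.38-fold (adjusted p = 0.0449, limma). With floor values raised to 0.5 RPKM neither passed, with adjusted p of 0.179 for Capn11 and 0.262 for Piezo1 (limma), nor did they with the 6 compared libraries alone (0.0852 and 0.145), and with 1 library left out Piezo1 passed only without C9orf72 ASO replicate 3 (adjusted p up to 0.166 in the other 8 fits, without saline replicate 2). The other calpain genes (11 members of the list, 2 lower and 0 higher at an unadjusted p under 0.05, median -0.07) and mechanosensitive channel genes (20 members, 6 lower, 0 higher, median -0.11) held no further call. The channel count was 3 without saline replicate 1, saline replicate 2 or control ASO replicate 3, and the calpain count was 1 to 5 with 1 library left out.

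In all, 22 genes were listed at the floor throughout the treated group while at least 0.5 RPKM after saline, and 6 were at the floor in each saline library while measured after the C9orf72 ASO. All of these were low genes, with a highest saline mean of 1.21 RPKM and a highest C9orf72 ASO mean of 0.788 RPKM. Of the 22, 4 were at the floor in all control ASO libraries too and 4 in none of them. Mycn, a transcription factor of neural progenitors, had 0.710, 0.531 and 0.552 RPKM after saline and Kif26a, a kinesin family gene, had 0.732, 0.630 and 0.545 RPKM. Both were measured in every control ASO library, at 0.635 to 0.694 RPKM for Mycn and 0.510 to 0.596 RPKM for Kif26a. They were at the floor after the C9orf72 ASO and missed the threshold (adjusted p = 0.0536 for each, limma). Their other values lay near the measurable limit of 0.5 RPKM. Under the alternatives tried, the adjusted p ran from 4.1e-05 to 0.439 for Mycn and from 4.0e-05 to 0.309 for Kif26a (limma). With floor values in 433 of the 14330 genes, the remaining 13897 were measured in all 6 libraries.

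Ide, insulin-degrading enzyme, which also degrades amyloid beta peptide, differed from the other called genes in its control ASO values. It was at 15.5, 18.8 and 16.9 RPKM after saline, at 11.7, 11.97 and 11.5 RPKM after the control ASO and at 12.4, 12.2 and 11.1 RPKM after the C9orf72 ASO. Both ASO groups lay below saline and overlapped with each other. Ide fell by 0.51 against saline (SE 0.07, adjusted p = 0.031, limma), while its log2 fold change was 0.03 against the control ASO and -0.54 (adjusted p = 0.0883) for the control ASO against saline. The call ended without replicate 2 or 3 of saline, and without replicate 1 or 2 of either ASO (adjusted p of 0.0786 to 0.115, limma), without trend and robust estimation (0.0882) and with the 6 compared libraries alone (0.116). Among 33 genes of amyloid and peptide processing, 7 were lower and 0 higher at an unadjusted p under 0.05, the median was -0.08 and Ide was the only one called. Dao, D-amino acid oxidase of astrocytes, lay in the same way at 9.85, 8.96 and 9.70 RPKM after saline, 7.99, 7.55 and 6.73 RPKM after the control ASO and 7.14, 6.91 and 6.34 RPKM after the C9orf72 ASO, and it missed the threshold (log2 fold change -0.48, adjusted p = 0.0536, limma).

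AA474408, a mouse locus known by this symbol only, was at 1.92, 1.75 and 1.75 RPKM after saline, 2.12, 1.48 and 1.48 RPKM after the control ASO and 4.73, 7.57 and 5.44 RPKM after the C9orf72 ASO. All treated libraries were above the other 6, and AA474408 rose by 1.63 on the log2 scale (SE 0.17, adjusted p = 0.00366, limma). Lars2, the mitochondrial leucyl-tRNA synthetase, had counted reads of 1186, 1032 and 1299 RPKM after saline, of 819, 808 and 994 RPKM after the control ASO and of 3453, 2910 and 1815 RPKM after the C9orf72 ASO. The treated libraries were the highest and the control ASO libraries the lowest, with no overlap, but Lars2 missed the threshold against saline (log2 fold change 1.17, SE 0.19, adjusted p = 0.0566, limma). C9orf72 ASO replicate 3 was the lowest of the treated libraries, and without it the adjusted p was 0.00173 (limma). Whether reads counted at this high level all come from the mRNA of the enzyme was not tested here. The 17 mitochondrial tRNA synthetase genes had a median of -0.04, and apart from Lars2 the smallest p belonged to Cars2, the cysteinyl enzyme (log2 fold change -0.29, adjusted p = 0.23, limma).

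Genes of microglia, the resident macrophages of the cord, were called on the higher side. Lyz2, lysozyme of the macrophage lineage, was at 3.35, 2.70 and 2.33 RPKM after saline, 3.65, 4.47 and 3.91 RPKM after the control ASO and 7.12, 5.53 and 5.42 RPKM after the C9orf72 ASO. The 3 groups followed each other without overlap, and Lyz2 rose by 1.09 against saline (SE 0.14, adjusted p = 0.0176, limma). That difference was made up of 0.52 between the control ASO and saline and 0.57 between both ASOs, neither of which passed (adjusted p = 0.79 and 0.21, limma).

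Lyz2 shares 422 of 444 coding bases (95%) with its neighbour gene Lyz1, so that reads may be divided between both by the authors' counting. The start of each coding sequence in the GENCODE M21 annotation is shown, 120 bases 5′ to 3′, with the 11 positions that differ in capitals.
Lyz2: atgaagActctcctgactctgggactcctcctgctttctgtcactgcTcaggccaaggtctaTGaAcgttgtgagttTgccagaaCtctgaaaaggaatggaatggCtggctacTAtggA
Lyz1: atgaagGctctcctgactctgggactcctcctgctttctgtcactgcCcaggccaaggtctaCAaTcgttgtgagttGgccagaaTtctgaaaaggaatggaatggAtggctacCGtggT
Lyz1 was far lower, at 0.768 RPKM in saline replicate 1 and at the floor in both other saline libraries, at the floor, 1.01 and 0.692 RPKM after the control ASO and at 1.17, 1.01 and 0.910 RPKM after the C9orf72 ASO. It did not pass (adjusted p = 0.271, limma), and it was named after its values were seen.

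Tyrobp, the adaptor through which TREM2 signals, was at 14.7, 11.5 and 12.5 RPKM after saline, 12.5, 15.4 and 14.3 RPKM after the control ASO and 19.3, 21.7 and 21.04 RPKM after the C9orf72 ASO. All treated libraries were above the other 6, and Tyrobp rose by 0.68 (SE 0.10, adjusted p = 0.031, limma). Trem2, the receptor itself, was at 6.85, 5.75 and 5.05 RPKM after saline, 6.06, 6.64 and 6.37 RPKM after the control ASO and 8.90, 7.77 and 8.91 RPKM after the C9orf72 ASO, and missed the threshold (log2 fold change 0.54, adjusted p = 0.0874, limma). Values just short of the threshold were also those of Ctss, the lysosomal protease cathepsin S (0.45, adjusted p = 0.0689), Fcrls, an Fc receptor-like gene of microglia (0.63, adjusted p = 0.0874), and C1qb, a chain of the first complement component (0.44, adjusted p = 0.0929, all limma). Such values were not limited to these genes. On the lower side stood Gm3852 (-0.55, adjusted p = 0.0536), Slfn5 (-0.91, 0.0558) and Hipk2 (-0.46, 0.0633, all limma). Ppp1r17 was on the higher side (0.66, adjusted p = 0.0874, limma). The calls of Lyz2 and Tyrobp ended without saline replicate 2 (adjusted p = 0.109 and 0.118), C9orf72 ASO replicate 1 (0.0698 and 0.0973) or C9orf72 ASO replicate 2 (0.0604 and 0.113), and that of Tyrobp also without saline replicate 3 (0.103, limma). Neither passed without trend and robust estimation in limma (0.0571 and 0.0925) or with the 6 compared libraries alone (0.0852 for each).

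Of 27 genes of homeostatic microglia, 21 were above 0 in log2 fold change against saline, 12 were higher and 1 lower at an unadjusted p under 0.05 (limma), and the median was 0.16. The 3 treated libraries stood apart from the 3 saline libraries in 11 genes on the higher side and 2 on the lower side, against 5.61% and 12.4% of all genes in the fit. Medians were 0.12 against the control ASO and -0.01 for the control ASO against saline. P2ry12, the ADP receptor of resting microglia, was at 14.1, 14.4 and 14.3 RPKM after saline, 14.1, 14.9 and 15.6 RPKM after the control ASO and 19.1, 17.3 and 16.7 RPKM after the C9orf72 ASO (log2 fold change 0.31, adjusted p = 0.113, limma). The groups overlapped for Csf1r, the receptor that keeps microglia alive, at 10.9 to 12.2 RPKM after saline and 10.7 to 12.1 RPKM after the C9orf72 ASO, and for Tmem119, another marker of these cells, with a log2 fold change of 0.00. Selplg, a selectin ligand, was the gene on the lower side, at 9.83, 9.15 and 8.65 RPKM against 7.08, 7.02 and 8.11 RPKM (log2 fold change -0.31, adjusted p = 0.151, limma). P2ry12, Csf1r, Tmem119 and Selplg were named after their values were seen.

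Genes of activated microglia numbered 26, with 11 higher and 0 lower at an unadjusted p under 0.05 and a median of 0.16 against saline, 0.18 against the control ASO and -0.02 for the control ASO against saline. By that p, 3.79% of all genes in the fit were higher and 10.2% lower. Clec7a, the beta-glucan receptor dectin-1, was higher in both ASO groups, at 5.19, 4.64 and 3.17 RPKM after saline, 5.97, 7.78 and 8.41 RPKM after the control ASO and 7.77, 6.73 and 6.66 RPKM after the C9orf72 ASO (log2 fold change 0.72, adjusted p = 0.151, limma). Cd68, a lysosomal protein of macrophages, was separate from saline in the treated group only, at 4.81, 4.13 and 3.77 RPKM after saline, 4.04, 4.12 and 4.67 RPKM after the control ASO and 5.95, 5.12 and 5.45 RPKM after the C9orf72 ASO (0.37, adjusted p = 0.188, limma). Clec7a and Cd68 were named after their values were seen. With 1 library left out the median of the homeostatic list lay between 0.09 and 0.25 and that of the activated list between 0.13 and 0.20. The count of higher genes in the activated list was 6 without saline replicate 3 or C9orf72 ASO replicate 1.

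Markers of other myeloid and immune cells were few among the genes analysed. Only 3 of 24 symbols of lymphocytes and monocytes, 3 of 15 of perivascular macrophages and 2 of 17 of neutrophils were members, and apart from Lyz2, which the perivascular list shares, none was called. Icam1, C3ar1 and the other members of the complement and cytokine list (18 genes) had a median of 0.07, with 1 gene higher at an unadjusted p under 0.05. That gene was C3ar1, a receptor for a complement fragment, at 0.508, 0.521 and 0.528 RPKM after saline, 0.648, 0.738 and 0.776 RPKM after the control ASO and 1.17, 0.904 and 1.03 RPKM after the C9orf72 ASO (log2 fold change 0.87, adjusted p = 0.0974, limma).

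Because a motif for PU.1, the transcription factor of the myeloid lineage, lies at the start of Ctss, that promoter is shown (RefSeq, GRCm38.p6, chr3:95526536-95526791, plus strand, 5′ to 3′), with the match in capitals; it reads GAGGAAGT on the other strand and begins 2 bases before the annotated start.
Ctss: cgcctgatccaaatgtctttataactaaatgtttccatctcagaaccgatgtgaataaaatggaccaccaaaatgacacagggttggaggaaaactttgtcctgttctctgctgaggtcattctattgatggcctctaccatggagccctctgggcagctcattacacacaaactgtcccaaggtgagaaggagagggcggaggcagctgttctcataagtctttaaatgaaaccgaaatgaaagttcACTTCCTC
Promoters of 10724 of the 14330 genes were matched by symbol, each 300 bases from 250 before to 50 after the start. GAGGAAGT occurred on either strand in 2.69% of them, in 3 of 19 promoters of the homeostatic list and in 1 of 21 of the activated list. Ctss, which was not called, was picked for its match, and the promoters of the called Lyz2 and Tyrobp are not shown.

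**Figure D2:**
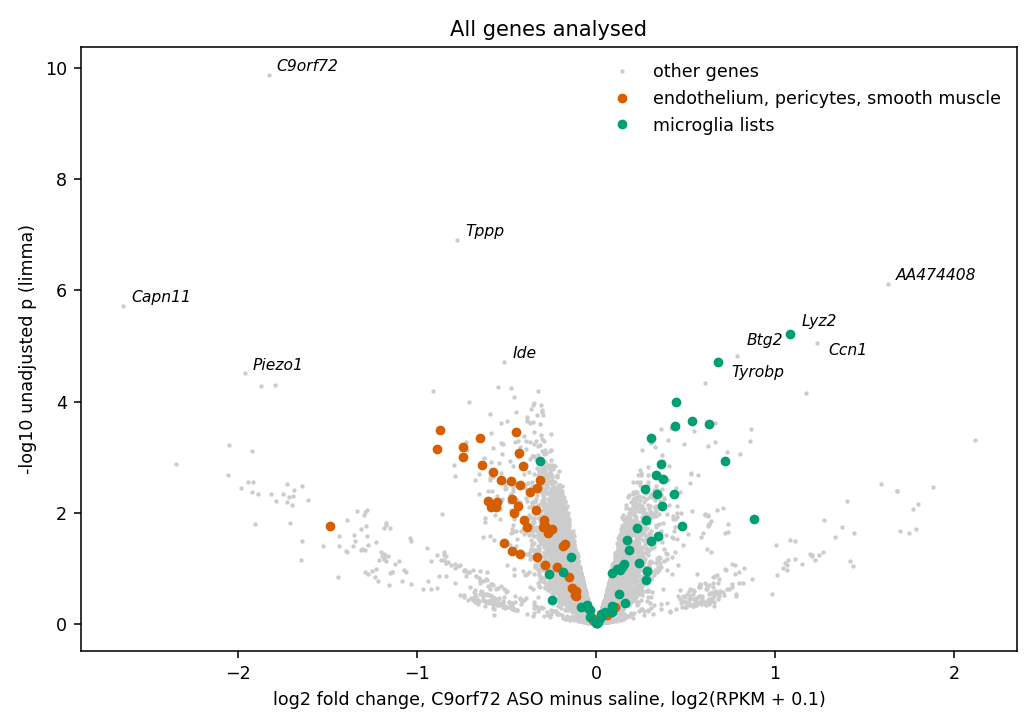
Log2 fold change of C9orf72 ASO against saline, on log2(RPKM + 0.1), and -log10 of the unadjusted limma p for the 14330 genes; genes of the endothelial and mural lists and of both microglia lists are coloured. Microglia genes lie mostly to the right of 0, vascular genes mostly to the left, and among both only Tyrobp and Lyz2 passed the threshold.

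Genes of blood vessels were lower as a group, though none passed the threshold alone. Among 33 endothelial genes, 22 were lower and 0 higher at an unadjusted p under 0.05 (limma), and the 3 treated libraries were below the 3 saline libraries in 22 and above in 0. Over all genes in the fit, 10.2% were lower and 3.79% higher by p, and 12.4% were below and 5.61% above without overlap. The endothelial median was -0.38 against saline, -0.16 against the control ASO and -0.23 for the control ASO against saline. Flt1 and Pecam1, the VEGF receptor 1 and an adhesion molecule of endothelial junctions, had the smallest p.

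Flt1 was at 13.8, 12.1 and 11.9 RPKM after saline, 11.9, 11.8 and 8.11 RPKM after the control ASO and 7.82, 7.27 and 8.85 RPKM after the C9orf72 ASO (log2 fold change -0.65, SE 0.13, adjusted p = 0.113, limma). Pecam1 was at 5.87, 4.55 and 4.32 RPKM after saline, 4.13, 3.89 and 2.60 RPKM after the control ASO and 3.11, 2.73 and 2.76 RPKM after the C9orf72 ASO (-0.75, SE 0.16, adjusted p = 0.118, limma). In both genes saline replicate 1 was the highest library, and control ASO replicate 3 was down at the level of the treated libraries. Cldn5, the claudin of the blood-brain barrier, was at 8.18, 5.59 and 5.73 RPKM after saline, 5.73, 4.499 and 4.02 RPKM after the control ASO and 3.68, 3.70 and 5.35 RPKM after the C9orf72 ASO (-0.60, adjusted p = 0.222, limma). Slc2a1, the glucose transporter of the barrier, differed less, at 37.0, 36.5 and 38.8 RPKM after saline and 27.9, 28.2 and 33.4 RPKM after the C9orf72 ASO (-0.33, adjusted p = 0.207, limma). Mfsd2a, the lipid transporter of the barrier, overlapped between groups (10.1 to 12.3 RPKM after saline, 8.98 to 11.6 RPKM after the C9orf72 ASO). Cldn5, Slc2a1 and Mfsd2a were named after their values were seen.

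Mural cells, the pericytes and smooth muscle around vessels, gave 17 genes, of which 14 were lower and 0 higher at an unadjusted p under 0.05, with a median of -0.41 against saline, -0.14 against the control ASO and -0.20 for the control ASO against saline. By that p, 10.2% of all genes in the fit were lower and 3.79% higher. Rgs5, a regulator of G protein signalling typical of pericytes, was at 46.4, 34.0 and 34.9 RPKM after saline, 32.2, 34.3 and 21.2 RPKM after the control ASO and 23.2, 20.3 and 18.9 RPKM after the C9orf72 ASO (log2 fold change -0.87, SE 0.17, adjusted p = 0.0996, limma). Abcc9, a potassium channel subunit of pericytes, had 2.89, 3.11 and 2.73 RPKM after saline, 2.55, 2.65 and 2.20 RPKM after the control ASO and 2.19, 2.11 and 2.02 RPKM after the C9orf72 ASO (-0.45, adjusted p = 0.101, limma). Myh11, the smooth muscle myosin, had 2.02, 1.56 and 1.41 RPKM after saline, 1.504, 1.39 and 0.863 RPKM after the control ASO and 0.821, 0.761 and 0.945 RPKM after the C9orf72 ASO (-0.89, adjusted p = 0.123, limma), whereas Acta2 and Tagln, smooth muscle actin and its binding protein, overlapped between groups. Myh11, Acta2 and Tagln were named after their values were seen. Meningeal fibroblast and collagen genes (25) had a median of -0.18, with 8 lower and 0 higher at an unadjusted p under 0.05 (4 lower and 1 higher without saline replicate 1, 5 lower without C9orf72 ASO replicate 3). Col4a1, a collagen of the vessel basement membrane, led them at 7.05, 5.201 and 4.82 RPKM after saline, 4.69, 4.34 and 4.09 RPKM after the control ASO and 3.80, 3.37 and 4.03 RPKM after the C9orf72 ASO (-0.58, adjusted p = 0.12, limma).

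Single libraries moved these values. Taken as the median over list genes of the log2 level relative to the saline mean, the endothelial list was at 0.18, -0.13 and -0.05 in the saline libraries, -0.10, -0.18 and -0.46 in the control ASO libraries and -0.45, -0.41 and -0.25 in the C9orf72 ASO libraries. Without saline replicate 1 the endothelial median was -0.29 and 14 genes were lower at an unadjusted p under 0.05, in place of 22. Without control ASO replicate 3, which adds only to the estimate of spread here, 3 endothelial genes and 1 mural gene passed the threshold, with Flt1 and Rgs5 at an adjusted p of 0.0284 each and Pecam1 at 0.0464 (limma). Mural genes were more even within groups, at 0.16, -0.07 and -0.09 in the saline libraries, -0.18, -0.22 and -0.27 in the control ASO libraries and -0.35, -0.37 and -0.35 in the C9orf72 ASO libraries.

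**Figure D3:**
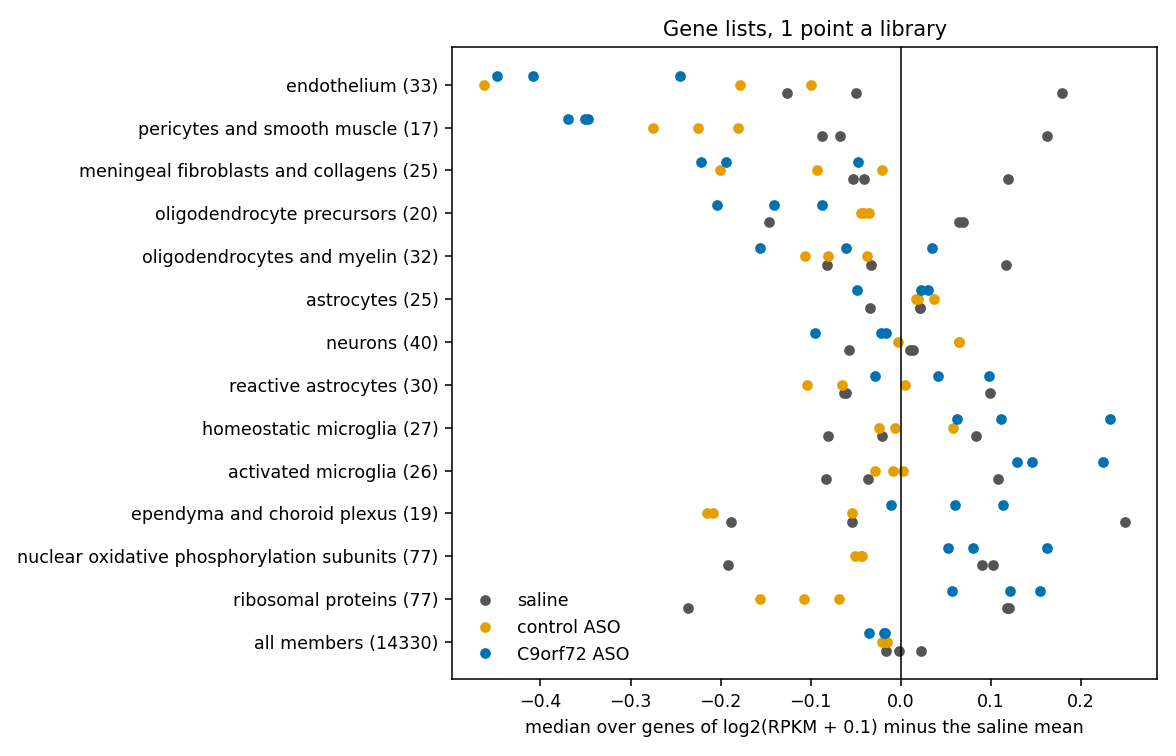
Median over the genes of a list of log2(RPKM + 0.1) minus the mean of the saline libraries, 1 point a library with 3 libraries a group; the number of genes is in parentheses. Within the pericyte and smooth muscle list the C9orf72 ASO libraries lie lowest, and within each microglia list they lie mostly highest. The endothelial list is lowest in control ASO replicate 3 (-0.46), with the C9orf72 ASO libraries at -0.45, -0.41 and -0.25. In the ribosomal and oxidative phosphorylation lists 1 saline library lies far left.

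Of the immediate early genes, which respond to stimuli within minutes, 2 were called. Ccn1, a secreted matrix protein induced by serum and by the YAP pathway, was at 1.55, 1.57 and 2.04 RPKM after saline, 1.35, 1.91 and 2.16 RPKM after the control ASO and 4.07, 4.75 and 3.71 RPKM after the C9orf72 ASO. It rose by 1.24 (SE 0.16, adjusted p = 0.0211, limma), with all treated libraries above the other 6. Btg2, an antiproliferative gene induced by growth factors and p53, was at 2.07, 1.79 and 2.26 RPKM after saline, 1.73, 2.16 and 2.01 RPKM after the control ASO and 3.26, 3.65 and 3.85 RPKM after the C9orf72 ASO. It rose by 0.79 (SE 0.11, adjusted p = 0.031, limma). Both calls ended without saline replicate 1 or 2 or C9orf72 ASO replicate 1 or 2, with an adjusted p of 0.0523 to 0.115 for Ccn1 and 0.0586 to 0.115 for Btg2 (limma). Neither passed without trend and robust estimation (0.0644 and 0.0571), and Btg2 did not pass with the 6 compared libraries alone (0.0852).

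No other member of the list was called. Of 38 immediate early genes, 8 were higher and 0 lower at an unadjusted p under 0.05, and the median was 0.01 against saline, -0.07 against the control ASO and 0.04 for the control ASO against saline. Without C9orf72 ASO replicate 3 there were 4 higher and 3 lower. Dusp1, a phosphatase of MAP kinases, was at 6.02, 5.93 and 6.68 RPKM after saline, 5.61, 7.06 and 7.57 RPKM after the control ASO and 7.82, 10.9 and 11.3 RPKM after the C9orf72 ASO (log2 fold change 0.66, adjusted p = 0.113, limma). Fos, the prototype of the class, overlapped between groups at 4.73 to 6.10 RPKM after saline and 5.10 to 5.58 RPKM after the C9orf72 ASO, and so did Egr1 (17.8 to 20.1 RPKM and 18.6 to 21.4 RPKM) and Arc (4.24 to 5.50 RPKM and 3.85 to 4.95 RPKM), 2 genes induced by neuronal activity. Fos, Egr1 and Arc were named after their values were seen. Ccn2, the sister gene of Ccn1, had a log2 fold change of -0.09, and the 23 YAP and TEAD targets had a median of -0.04. Medians were -0.05 for 28 p53 targets and 0.01 for 23 glucocorticoid response genes.

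Btg2, Dusp1 and Ccn1 are shown by their promoters, since immediate early genes are often induced through a cyclic AMP response element (CRE, TGACGTCA) or a serum response element (CArG box). The 250 bases before the annotated start are given on the gene's strand (RefSeq, GRCm38.p6, 5′ to 3′), with a CRE in capitals. Btg2 lies at chr1:134079156-134079405, Dusp1 at chr17:26508473-26508722 and Ccn1 at chr3:145649986-145650235, all on the minus strand.
Btg2: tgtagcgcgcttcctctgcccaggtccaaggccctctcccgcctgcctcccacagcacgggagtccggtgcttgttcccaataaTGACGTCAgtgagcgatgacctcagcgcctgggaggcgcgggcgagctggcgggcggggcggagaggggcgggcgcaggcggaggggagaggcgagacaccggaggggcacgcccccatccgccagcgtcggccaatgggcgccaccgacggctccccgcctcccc
Dusp1: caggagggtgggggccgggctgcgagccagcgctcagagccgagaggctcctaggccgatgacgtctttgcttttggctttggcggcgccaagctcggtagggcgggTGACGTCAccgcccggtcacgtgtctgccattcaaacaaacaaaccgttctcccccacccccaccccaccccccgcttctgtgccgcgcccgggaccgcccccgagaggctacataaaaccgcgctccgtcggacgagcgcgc
Ccn1: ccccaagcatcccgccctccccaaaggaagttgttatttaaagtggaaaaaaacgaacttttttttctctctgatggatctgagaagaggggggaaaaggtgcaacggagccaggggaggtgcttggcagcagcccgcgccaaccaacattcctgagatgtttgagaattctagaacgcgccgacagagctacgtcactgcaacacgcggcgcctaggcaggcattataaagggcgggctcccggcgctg
The CRE begins 166 bases before the start in Btg2 and 143 bases before it in Dusp1, and neither motif is in the letters shown for Ccn1. These promoters are picked examples. None of them held a CArG box, and Dusp1 was not called. On either strand of the 300-base windows, the CRE was in 3.19% of the 10724 promoters and in 2 of 29 of the immediate early list, and the CArG box in 1.31% and in 3 of 29. The CRE in this spelling does not overlap the CArG box.

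Clock genes showed differences in both directions within narrow groups. Arntl, the core activator BMAL1, was at 5.84, 6.07 and 5.52 RPKM after saline, 5.28, 5.03 and 4.99 RPKM after the control ASO and 4.504, 4.55 and 4.54 RPKM after the C9orf72 ASO (log2 fold change -0.35, adjusted p = 0.0689, limma). Nr1d1, the repressor REV-ERB alpha, was at 21.2, 22.8 and 22.5 RPKM after saline, 21.1, 17.1 and 19.4 RPKM after the control ASO and 16.5, 17.3 and 17.0 RPKM after the C9orf72 ASO (-0.39, adjusted p = 0.0874, limma). On the higher side stood Dbp, an output activator of the clock, at 34.0, 28.6 and 33.6 RPKM after saline, 35.2, 31.3 and 33.5 RPKM after the control ASO and 39.3, 37.8 and 43.2 RPKM after the C9orf72 ASO (0.32, adjusted p = 0.173, limma); Dbp was named after its values were seen. Of the 22 genes, 6 were higher and 2 lower at an unadjusted p under 0.05, and the median was 0.03. The labels give no time of day for the dissection, and its part in these values was not tested.

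**Figure D4:**
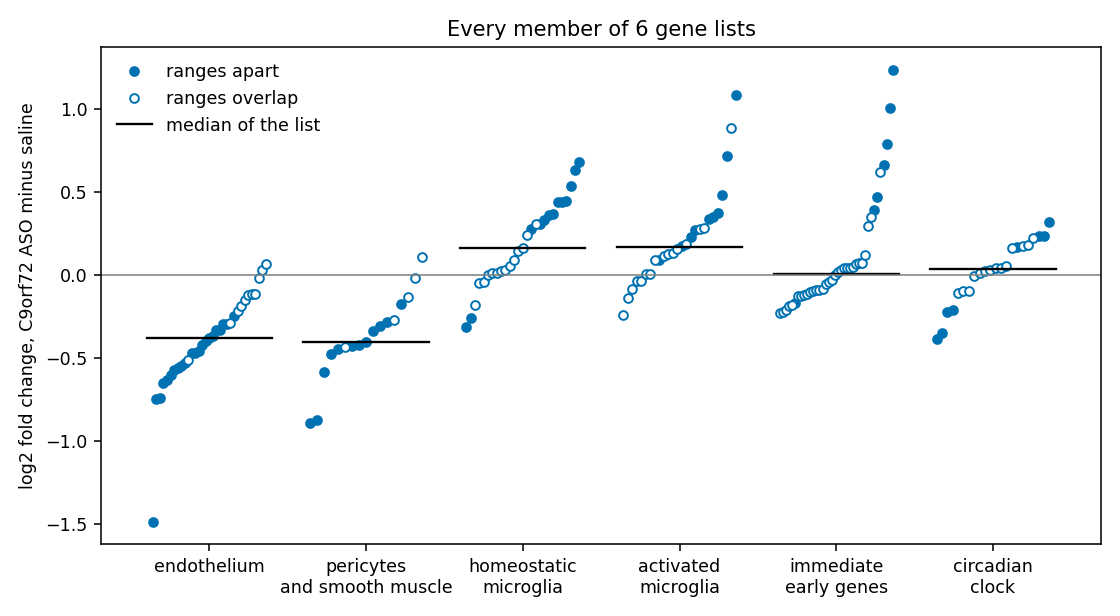
Log2 fold change of C9orf72 ASO against saline, on log2(RPKM + 0.1), for every gene of 6 lists, ordered by value; filled points are genes whose 3 treated and 3 saline libraries do not overlap, and the line is the list's median. Most endothelial and mural genes lie below 0, most microglia genes above 0, and immediate early and clock genes on both sides with medians near 0.

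Against saline, astrocyte and neuronal lists had medians near that of all genes, and oligodendrocyte precursors a lower one. The 25 astrocyte genes had a median of -0.01 and the 30 reactive astrocyte genes a median of 0.03, with 4 of the latter higher and 0 lower at an unadjusted p under 0.05. Gfap, the filament protein of reactive astrocytes, was at 858, 665 and 634 RPKM after saline, 669, 676 and 666 RPKM after the control ASO and 760, 664 and 783 RPKM after the C9orf72 ASO (log2 fold change 0.04, adjusted p = 0.893, limma), while S100a6, a calcium-binding protein, was at 17.9, 13.6 and 13.9 RPKM after saline and 21.8, 24.4 and 20.9 RPKM after the C9orf72 ASO (0.57, adjusted p = 0.173, limma). Oligodendrocyte precursor genes (20) had a median of -0.15 with 6 lower and 0 higher at an unadjusted p under 0.05. With 1 library left out that median lay between -0.23 and -0.05, and leaving out saline replicate 1 or C9orf72 ASO replicate 1 gave 2 lower genes, leaving out saline replicate 2 gave 3, and leaving out saline replicate 3 gave 10. Medians were -0.04 for 40 neuronal genes, of which 7 were lower and 0 higher, and -0.03 for 21 genes of motor neurons and cholinergic cells, of which 2 were higher and 2 lower. Leaving out C9orf72 ASO replicate 1 gave 1 lower neuronal gene, leaving out saline replicate 3 gave 4, and leaving out C9orf72 ASO replicate 3 gave 12. The treated libraries lay below saline without overlap in 10 neuronal genes and above in 0, against 12.4% and 5.61% of all genes in the fit. The neuronal median was -0.10 against the control ASO and 0.06 for the control ASO against saline. Chat, the enzyme that makes acetylcholine in motor neurons, was at 6.57, 5.70 and 6.24 RPKM after saline, 6.48, 5.85 and 5.43 RPKM after the control ASO and 5.28, 6.38 and 5.54 RPKM after the C9orf72 ASO (-0.11, adjusted p = 0.641, limma). Medians of the ependymal and choroid plexus (19 genes), Schwann cell (12), sensory neuron (8) and red cell (8) lists were 0.05, -0.06, 0.04 and 0.13, with at most 1 gene past an unadjusted p of 0.05 in each; the ependymal list had 5 higher without saline replicate 1 and 2 higher and 3 lower without C9orf72 ASO replicate 3.

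Pathways tied to the function of C9orf72 or to oligonucleotides held few differences. Medians were -0.01 for 63 lysosomal genes (4 higher and 4 lower at an unadjusted p under 0.05), -0.02 for 48 autophagy genes (0 and 5), and -0.02 for 39 ALS and FTD genes (1 and 6, with C9orf72 the only call). Single libraries moved the lysosomal counts to 9 higher (without saline replicate 1), 1 higher (without C9orf72 ASO replicate 1), 2 lower (without C9orf72 ASO replicate 2) and 7 lower (without C9orf72 ASO replicate 3), and the autophagy count to 2 and 8 lower (without C9orf72 ASO replicates 2 and 3). Sqstm1, the autophagy receptor p62, was at 142, 122 and 133 RPKM after saline, 131, 124 and 128 RPKM after the control ASO and 126, 122 and 142 RPKM after the C9orf72 ASO (log2 fold change -0.02, adjusted p = 0.917, limma). Tardbp, the RNA-binding protein TDP-43, was at 88.8, 85.5 and 89.3 RPKM against 94.9, 89.6 and 86.7 RPKM (0.04, adjusted p = 0.81, limma). Genes that handle ASOs or act with RNase H (21) had a median of 0.03 with 3 higher and 1 lower, and Rnaseh1, the enzyme that ASOs recruit, was at 5.33, 4.83 and 5.02 RPKM against 4.95, 4.37 and 5.08 RPKM (-0.08, adjusted p = 0.679, limma). Nucleic acid sensors (17) had a median of -0.01 with 0 higher and 1 lower, and 33 interferon-stimulated genes a median of -0.03 with 3 higher and 2 lower. With 1 library left out the sensors had 0 to 3 on either side and the interferon list 2 to 4 higher and 0 to 4 lower. Ifit3, an antiviral effector, was at 10.5, 10.8 and 9.53 RPKM after saline, 12.3, 10.98 and 10.3 RPKM after the control ASO and 13.96, 11.9 and 14.2 RPKM after the C9orf72 ASO (0.37, adjusted p = 0.151, limma), and reads may be divided between it and the similar Ifit3b. The 17 genes of MHC antigen presentation had a median of -0.10, although B2m, the light chain of class I molecules, was at 140, 123 and 136 RPKM after saline, 125, 142 and 126 RPKM after the control ASO and 166, 164 and 151 RPKM after the C9orf72 ASO (0.27, adjusted p = 0.207, limma).

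Stress and housekeeping lists completed the set. Medians lay between -0.05 and 0.07 for the unfolded protein response (37 genes), heat shock chaperones (28), cholesterol synthesis (28), the proteasome (33) and antioxidant and metallothionein genes (37), and in the last 8 genes were higher and 3 lower at an unadjusted p under 0.05. Gpx1, glutathione peroxidase, had the smallest p of them, at 41.3, 33.7 and 36.4 RPKM after saline, 36.2, 34.5 and 35.9 RPKM after the control ASO and 42.2, 46.3 and 47.5 RPKM after the C9orf72 ASO (log2 fold change 0.29, adjusted p = 0.192, limma). Ribosomal protein genes (77) had a median of 0.13, nuclear oxidative phosphorylation subunits (77) of 0.10 and replication-dependent histones (18) of 0.15, with 3, 7 and 2 genes higher and 0 lower at an unadjusted p under 0.05. Against the control ASO the medians were 0.22, 0.14 and 0.30, with 45, 25 and 6 genes higher and 0 lower by that p. Over all 14330 genes, 922 were higher and 1101 lower in that comparison. For the control ASO against saline the medians were -0.11, -0.05 and -0.13. All 3 medians against saline depended on single libraries. In saline replicate 2 the ribosomal median was -0.24, against 0.12 in each of the other saline libraries and 0.06 to 0.16 after the C9orf72 ASO. It was -0.11, -0.07 and -0.16 after the control ASO. Without saline replicate 2 the medians against saline were 0.00 for ribosomal proteins and 0.01 for oxidative phosphorylation, with 1 and 2 genes higher. Without saline replicate 1 these 2 lists had 18 and 14 higher. The histone list was at -0.10, 0.07 and 0.39 in the C9orf72 ASO libraries and at -0.23 in saline replicate 2, and its median moved to -0.01 when C9orf72 ASO replicate 3 was left out, to 0.05 when saline replicate 2 was and to 0.25 when saline replicate 1 was.

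Fold changes also followed the length of the coding sequence. Of 13293 genes with a coding length in GENCODE M21, the shortest of 5 equal bins had a median log2 fold change of 0.02, with 194 genes higher and 135 lower at an unadjusted p under 0.05, and the longest bin had a median of -0.06, with 45 higher and 441 lower. Across genes, which are not independent replicates, the Pearson correlation of fold change and log2 coding length was -0.19. Saline replicate 2 ran against the other saline libraries, with medians of -0.09 in the shortest and 0.06 in the longest bin, where replicate 1 was at 0.07 and -0.03. Without saline replicate 2 the shortest bin exceeded the longest by 0.01, in place of 0.09. The part of length in the calls was measured by removing the trend, after which 13 genes passed, 9 of them among the 10 above.

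**Figure D5:**
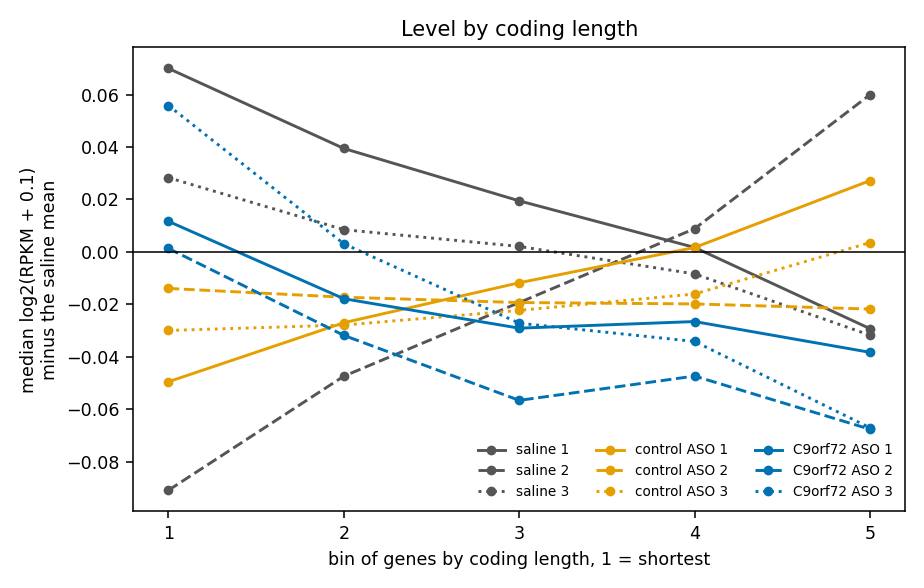
Median of log2(RPKM + 0.1) minus the saline mean over 5 equal bins of genes by coding length, 1 line a library. The C9orf72 ASO libraries fall from left to right, as do saline replicates 1 and 3, while saline replicate 2 rises from -0.09 to 0.06.

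Whole-table counts had the same tilt. At an unadjusted p under 0.05, 546 of the 14330 genes were higher and 1461 lower after the C9orf72 ASO. These counts were 305 and 916 without C9orf72 ASO replicate 1 and 435 and 888 without C9orf72 ASO replicate 2. The 3 treated libraries were above the 3 saline libraries in 809 genes and below in 1790. Differences over 1 on the log2 scale were seen in 38 genes on the higher side and 83 on the lower side. Of 23 named genes with the smallest p in each direction whose groups did not overlap (11 higher and 12 lower), the control ASO libraries stood apart from the C9orf72 ASO and overlapped saline in 9 higher and 9 lower genes. They stood apart from both in Lyz2, Lars2 and Inpp5j, a phosphoinositide phosphatase gene, and apart from saline alone in Ide and Dao. These genes were picked by the gap between the C9orf72 ASO and saline, so that the counts only describe them. Over all 14330 genes, the C9orf72 ASO libraries were above the control ASO libraries in 1464 and below in 1695.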

How the data were processed

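Strand-specific libraries were made from total RNA extracted with Trizol, per the labels' protocols. The submitters' processing notes name cutadapt 1.2.1, which trims adapters, the aligner GSNAP and the build mm9. How reads were counted, on which annotation, and how the 14831 genes were chosen is not given in the sources used here. Deposited values are read here as RPKM computed by the authors, since the deposited header names no unit and low values step in whole reads per exon length: for genes of up to 350 bases, 58.1% to 70.2% of values fell within 0.1 of a whole read. No value lay between 0.1 and 0.5, so each value under 0.5 RPKM had been set to 0.1. The floor limits low genes before depth does, and a fitted fold change of a gene at the floor is no measure of its size.

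Groups followed the labels' treatment. Differences were tested with limma 3.58.1 (R 4.3.3, statmod 1.5.0; trend and robust variance) on log2(RPKM + 0.1), which understates changes of low genes, in 1 fit of 9 libraries on the 14430 genes with 0.5 RPKM or more in at least 3 of them. P-values were adjusted by Benjamini-Hochberg over all 14430 genes, with a threshold of 0.05. The script was tested on simulated data.

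The comparison, the 45 gene lists and the tests were chosen with earlier results of these data known. The rule for naming genes took the target, every gene past the threshold, those with the smallest p and separate groups (up to 12 in each direction), the called members of each list or else its 2 smallest p, and Smcr8, Wdr41, Gfap, Aif1, Chat, Mbp, Sqstm1, Rnaseh1, Tardbp and Lars2. Some genes that the rule took from the lists are not described. Aif1 was not analysed here. Symbols, coding lengths and the lysozyme sequences came from GENCODE M21 (GRCm38), and promoters from RefSeq (GRCm38.p6). No other coordinates are given, since the builds differ.

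Alternatives were another variance setting, the 6 libraries alone, other pseudocounts, filters, scalings and thresholds, floor values raised to 0.5 RPKM, the trend with coding length removed and each library left out in turn.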

Additional observations from a re-analysis of the deposited data

How the results depend on the processing

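The fall of C9orf72 held under every alternative tried, at -1.90 to -1.74 with 1 library left out. The count of genes past the threshold, 10 with 5 higher and 5 lower, was less stable. With the 6 libraries alone 4 genes passed, 2 higher and 2 lower. Without trend and robust estimation 15 passed, 5 higher and 10 lower, of which 5 were among the 10, and Lyz2, Ccn1, Btg2, Tyrobp and Ide no longer passed. Pseudocounts of 0.5 and 1, floor values raised to 0.5 and median scaling left 3 lower each, and 8 were higher with the trend with coding length removed. At an adjusted p under 0.1 there were 48 genes (16 higher and 32 lower) and under 0.01 there were 4 (1 higher and 3 lower). Leaving out 1 library gave 4 to 54 genes, with 1 to 11 higher and 3 to 43 lower. The lowest count came without saline replicate 2, C9orf72 ASO replicate 1 or C9orf72 ASO replicate 2, and the highest without C9orf72 ASO replicate 3. Of 45 lists, 13 held a called gene, against 7 without trend and robust estimation, 6 with the 6 libraries alone and 5 to 15 with 1 library left out. C9orf72, Tppp, Lyz2, Ccn1 and Btg2 each stood in 2 lists. The lists were also chosen with earlier results known, so that this count is no measure of breadth. The gap between the shortest and longest of 5 bins of coding length, 0.09, was 0.0029 with the length trend removed and 0.0051 (without saline replicate 2) to 0.13 (without saline replicate 1) with 1 library left out. The cause of these shifts was not tested, beyond the smaller number of libraries in those fits.

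Of values for single genes, 14 turned sign, 29 came to pass, 49 ceased to pass and 1722 kept direction and call. Those that turned were genes near 0. Sqstm1 was at 0.0091 with median scaling and 0.017 with the length trend removed, and Mmp9, a metalloprotease gene of the neutrophil list, at 0.011 with the latter. With 1 library left out, the range was -0.042 to 0.18 for Gfap, -0.087 to 0.027 for Sqstm1, -0.14 to 0.029 for Mmp9 and -0.10 to 0.13 for Smcr8. Of list medians, 838 moved by at most 1 SD of the C9orf72 ASO libraries and 82 by more. The 838 hold settings that could not move these medians. Such settings were another variance setting, the 6 libraries alone, some filters and leaving out a control ASO library. The count is therefore no measure of stability. No paired analysis was possible because the labels give the groups no shared replicate numbers. Genes near or under 0.5 RPKM could not be compared at this floor, and 3 libraries a group limit an exact test to p = 0.1.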
